A study of Homo sapiens with 92 samples.

Results

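The genes described here are the human ADAM, ADAMTS, MMP and TIMP genes, taken by symbol alone, as a family name followed directly by a number. The families themselves were chosen with earlier results of these data known. Of 48901 genes kept from the deposited files, 66 met that rule, namely 21 ADAM, 19 ADAMTS, 22 MMP and 4 TIMP genes.

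These families set how cells cut and keep their surroundings. ADAM proteins sit in the cell membrane and release the outer parts of other membrane proteins, although several lack a complete zinc site and act in adhesion instead. ADAMTS proteins are secreted and cut proteoglycans, procollagens and other matrix proteins, MMPs cut collagens and many other matrix and surface proteins, and TIMPs inhibit these enzymes to differing degrees.

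New RNA was measured by SLAM-seq, in which 4-thiouridine (4sU) taken up during a pulse is alkylated and read as T-to-C conversions, so that reads with a conversion mark RNA made during the pulse. Every library came from cells whose NIPBL gene carries the tag mGreenLantern-P2A-FKBP12(F36V). NIPBL helps cohesin to extrude DNA loops, and dTAGV-1 brings the tagged protein to the VHL ubiquitin ligase for degradation, while control cells carry the same tag and received the solvent DMSO. The RPE-1 libraries are from the single clone NIPBL-D7 of hTERT RPE-1, a telomerase-immortalised line from human retinal pigment epithelium. In the mitosis series, cells synchronised with thymidine received dTAGV-1 or DMSO together with nocodazole for 120 min, were shaken off in mitosis and were released with the same drug. A 15 min pulse of 4sU ended at 0, 30, 60, 90 or 120 min after release, with 4, 3, 4, 4 and 3 dTAGV-1 libraries and 3, 3, 4, 4 and 4 DMSO libraries, or at 4, 6 or 8 h, with 2 libraries of each arm. In the release series the drug was present only after release, with pulses ending at 30, 60, 90 or 120 min and 3 libraries of each arm. Both series also had a 120 min pulse ending at 120 min, with 3 libraries of each arm. Neurons and cardiomyocytes grown from the induced pluripotent stem cell line WTC11 received dTAGV-1 or DMSO for 4 h, with a 120 min pulse and 2 libraries of each arm. Their cell line field names hTERT RPE-1, whereas titles and growth notes name WTC11 cells, and the titles were followed. No source states that replicates were separate cultures, so p-values measure the spread between these libraries, which may be technical.

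Of the 5 genes lower with dTAGV-1 in 4 or more of the 7 drug comparisons below, 4 have an entry in the promoter table used. The 250 bases before their annotated starts are shown. How many of all genes were lower this often was not counted. Some of the comparisons also share a fit, so this choice of genes is a description and no result. The windows (RefSeq, GRCh38.p14, minus strand, written 5′ to 3′ along the gene) are chr5:65481921-65482170 for ADAMTS6, chr15:78811465-78811714 for ADAMTS7, chr5:33891991-33892240 for ADAMTS12 and chr10:126388478-126388727 for ADAM12. Capitals mark the letters of the AP-1 motif TGANTCA and the TEAD motif GGAATG, searched on both strands.
ADAMTS6: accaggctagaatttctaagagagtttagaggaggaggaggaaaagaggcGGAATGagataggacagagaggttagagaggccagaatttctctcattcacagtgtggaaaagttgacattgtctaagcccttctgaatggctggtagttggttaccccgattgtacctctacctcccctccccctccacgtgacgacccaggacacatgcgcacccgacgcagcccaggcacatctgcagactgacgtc
ADAMTS7: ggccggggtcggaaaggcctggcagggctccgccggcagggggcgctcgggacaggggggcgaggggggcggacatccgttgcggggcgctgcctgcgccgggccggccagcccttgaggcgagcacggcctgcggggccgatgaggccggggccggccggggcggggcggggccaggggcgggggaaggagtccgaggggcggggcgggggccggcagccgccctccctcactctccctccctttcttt
ADAMTS12: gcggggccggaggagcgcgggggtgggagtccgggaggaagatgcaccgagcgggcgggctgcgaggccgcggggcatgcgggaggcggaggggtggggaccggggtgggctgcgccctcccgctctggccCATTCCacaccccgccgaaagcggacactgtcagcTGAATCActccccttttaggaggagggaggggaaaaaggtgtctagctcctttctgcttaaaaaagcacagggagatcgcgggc
ADAM12: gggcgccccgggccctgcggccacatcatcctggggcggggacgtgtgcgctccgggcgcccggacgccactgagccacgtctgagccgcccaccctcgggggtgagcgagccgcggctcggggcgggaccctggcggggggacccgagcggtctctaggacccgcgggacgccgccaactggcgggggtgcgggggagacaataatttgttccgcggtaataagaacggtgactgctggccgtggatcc
The window of ADAMTS12 held the AP-1 letters at -84 and the TEAD letters at -119, counted from the start, and that of ADAMTS6 held the TEAD letters at -200. Neither motif was in the windows of ADAMTS7 and ADAM12, and the TATA letters TATAAA were in none of the 4. Of 38 windows of 37 matched members, 4 held TGANTCA, 4 held GGAATG and 7 held TATAAA, against 6.57%, 11.9% and 10.7% of 35116 windows of all genes. A match describes letters and is not a bound site. The deposited start of ADAMTS12 lies inside its window.

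The libraries held 0.419 to 35.3 M (mega) converted reads out of 10.7 to 113.8 M reads, and the converted share was 2.44 to 9.07% after 15 min of 4sU, 23.5 to 38.9% after 120 min in RPE-1 and 20.9 to 29.4% in the WTC11-derived cells. No library without 4sU was used, so the share of conversions that arise without it is unknown. The drug acts on NIPBL protein, so NIPBL RNA does not check it. Converted NIPBL reads were 313 to 403 CPM (scaled counts per M) with dTAGV-1 and 247 to 295 CPM with DMSO at 4 to 8 h. They were 484 to 490.4 CPM with dTAGV-1 and 434 to 443 CPM with DMSO in neurons, and 517 to 531 CPM with dTAGV-1 and 482 to 513 CPM with DMSO in cardiomyocytes. In the other RPE-1 sets the arms overlapped at each time. In the mitosis series, DMSO replicate 3 at 120 min was unlike its group: 10 genes took 13.5% of its reads with a conversion, and 3.45 to 3.75% in the other libraries of that group. Of 8 markers of retinal pigment epithelium, 7 stayed under 5 CPM in every RPE-1 group mean, RPE65 and BEST1 among them, and MITF reached 76.4 to 388 CPM. The neuron marker list summed to 1760.5 to 1807 CPM in neurons with dTAGV-1 and 1747 to 1845 CPM with DMSO. The cardiomyocyte list summed to 4240.3 to 4512 CPM in cardiomyocytes with dTAGV-1 and 3939 to 4274 CPM with DMSO, with MYL2 at 0.

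Of the 66 genes, 47 had enough converted reads to be tested in at least 1 fit, namely 14 ADAM, 18 ADAMTS, 11 MMP and 4 TIMP genes. RPE-1 accounted for 39, and ADAM11, ADAM28, ADAM29, ADAMTS8, ADAMTS9, ADAMTS19, MMP1 and MMP24 were tested only in the WTC11-derived cells. The 19 untested genes had at most 195 converted reads over the 92 libraries. They include MMP9, the gelatinase B, with 14 reads, MMP3, the stromelysin 1, with 5 reads, and ADAMTS4, an aggrecanase, with 74 reads. In the MMP cluster of chromosome 11, MMP1 was tested and its neighbours MMP10 and MMP3 had 16 and 5 reads. Over the 7 comparisons of dTAGV-1 with DMSO, 19 of the 47 genes passed the test at least once, beside 18% of the 20681 genes tested in any of them (10.7% lower and 7.82% higher). These were 5 ADAM, 12 ADAMTS, 1 MMP and 1 TIMP gene, 11 of them lower and 9 higher, with TIMP3 in both directions.

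**Figure D1:**
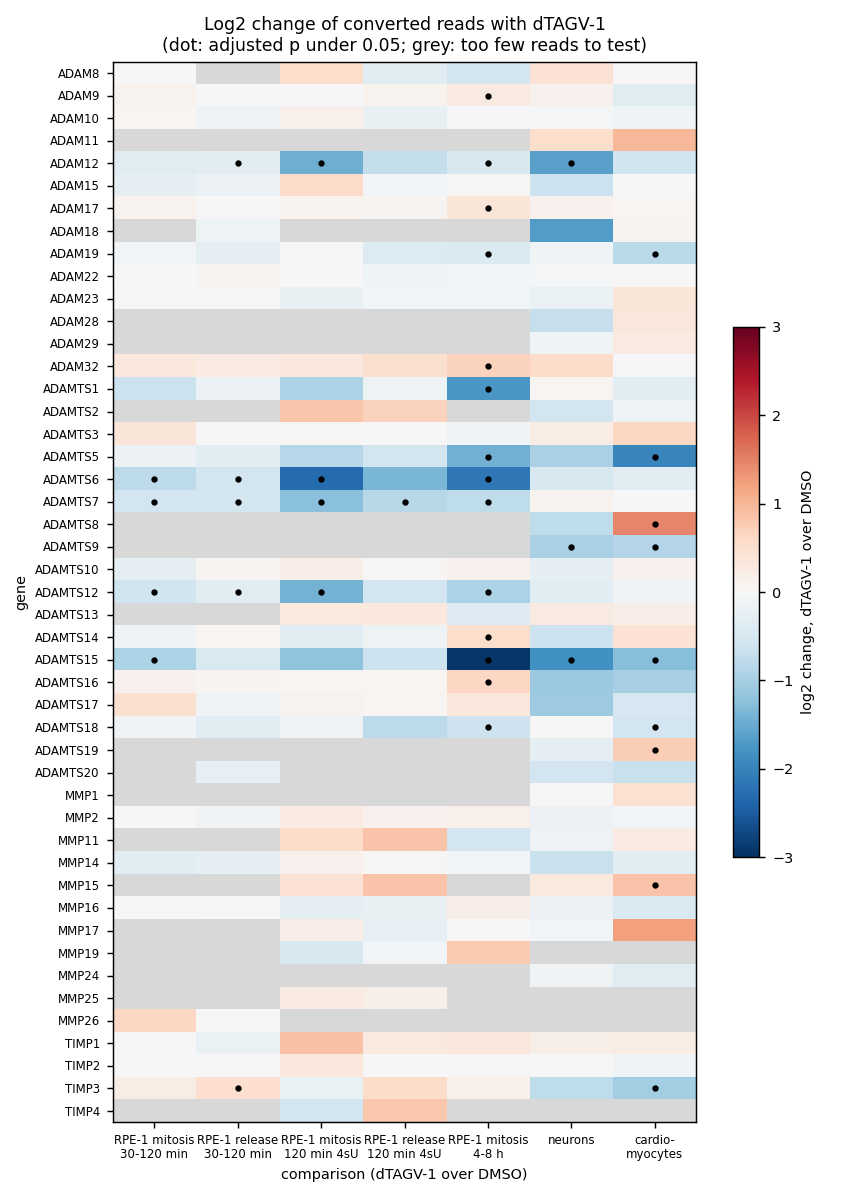
Each row is a tested gene and each column a comparison of dTAGV-1 with DMSO; colour gives the log2 change of converted reads, a dot an adjusted p under 0.05, and grey too few reads. The column for 4 to 8 h holds 14 dots, 9 of them in ADAMTS rows, and MMP15 is the 1 MMP with a dot.

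In DMSO cells leaving mitosis, ADAMTS1, which cuts versican and aggrecan, and ADAM19, which sheds neuregulins, rose most by 120 min after release. ADAMTS1 had 349.7, 341, 769 and 587 CPM at 120 min, against 70.2, 172 and 154 CPM at 0 min (log2 change 1.96 ± 0.58 (SE), adjusted p = 0.010, edgeR's quasi-likelihood test with Benjamini-Hochberg adjustment). ADAM19 had 723, 938, 533 and 998 CPM at 120 min, against 256, 282 and 303 CPM at 0 min (1.51 ± 0.22, adjusted p = 2.24e-06, edgeR). For both genes all libraries at 120 min lay above all at 0 min, although ADAMTS1 lost its call without replicate 4. MMP16, a membrane-type MMP, had 219, 333, 77.5 and 337 CPM at 120 min, against 119.6, 116 and 122 CPM at 0 min (1.05 ± 0.26). Its lowest value is that of replicate 3, which stood apart. ADAMTS7, which cuts cartilage oligomeric matrix protein, had 24.1, 20.5, 21.4 and 31.1 CPM at 120 min, against 10.1, 11.99 and 14.4 CPM at 0 min (1.03 ± 0.30). ADAMTS14, a procollagen proteinase, had 28.1, 20.0, 13.2 and 16.7 CPM at 120 min, against 9.61, 6.99 and 15.3 CPM at 0 min (0.92 ± 0.35). The groups of ADAMTS7 were apart and those of ADAMTS14 overlapped. ADAMTS14 lost its call in 8 of 12 settings, among them DESeq2's test and leaving out replicate 1, 2 or 3. TIMP3, the matrix-bound inhibitor, rose by 0.84 ± 0.29 and ADAMTS6 by 0.70 ± 0.26 (adjusted p = 0.027 and 0.039, edgeR), and ADAM22, a synaptic adhesion protein without a complete zinc site, changed by -0.87 ± 0.26 (adjusted p = 0.012). Converted reads show fewer cells making an RNA and less RNA made per cell alike, and these cannot be told apart.

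At 120 min 7 of 29 tested members were thus higher and 1 lower, beside 14.7% and 13.2% of 14203 genes (27.8% in either direction). The members' median log2 change was 0.33, against 0.06 over all genes. The scaling sets the bulk of genes near 0, and with library sizes from all reads the median of all genes was 0.43, with 11 members higher and 0 lower. Counting every read, converted or not, 6 members were lower and 2 higher, and ADAMTS6 (-0.73) and MMP16 (-0.023) turned their direction. Without replicate 2 of both groups 2 members passed, without replicate 3 5 did and without replicate 4 3 did.

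At the earlier times the same 0 min libraries served as baseline. At 30 min no member passed and no gene of the table did (edgeR, 2 members and 497 genes at an unadjusted p under 0.05). At 60 min 7 members were lower and 1 higher, beside 13.9% and 22% of all genes. The 3 tested ADAMs without a complete zinc site were among the lower ones, ADAM32 at -1.29 ± 0.38, ADAM22 at -0.99 ± 0.25 and ADAM23 at -0.57 ± 0.16, although none of the 7 lower calls passed with library sizes from all reads, where ADAM23 turned to 0.031 and ADAM9 to 0.16. Without replicate 2 of both groups, ADAM22 alone of the 7 passed. ADAM17, which releases TNF and ligands of the EGF receptor, was the higher member, with 148, 182, 199 and 191 CPM at 60 min, against 121, 112 and 112 CPM at 0 min (0.64 ± 0.17), a call lost without replicate 3 or 4 and with all reads. At 90 min ADAMTS1, ADAM19, MMP16 and ADAMTS7 were higher and ADAM22 lower, beside 14.2% and 9.99% of all genes. There ADAMTS7 lost its call without replicate 1, 2 or 3, ADAMTS1 without replicate 4, and MMP16 and ADAM22 without replicate 2 or 4. In the release series no member differed between 120 and 30 min in DMSO cells (edgeR, 7 of 30 at an unadjusted p under 0.05), beside 2.18% of all genes (1.41% higher and 0.761% lower).

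Between 4 and 8 h in DMSO cells 7 of 32 members fell and 5 rose, beside 6.73% and 6.6% of 14568 genes (13.3% in all). ADAMTS10, which binds fibrillin, had 10.5 and 12.4 CPM at 8 h, against 3.62 and 2.28 CPM at 4 h (1.91 ± 0.33). ADAM8, a leukocyte and tumour cell sheddase, had 4.09 and 4.08 CPM at 8 h, against 1.63 and 1.01 CPM at 4 h (1.57 ± 0.46). ADAMTS15, a proteoglycanase, had 8.34 and 10.3 CPM at 8 h, against 3.08 and 4.31 CPM at 4 h (1.35 ± 0.34). All 3 were apart between the times, and ADAMTS10 passed under all 19 settings tried. ADAM8 lost its call with DESeq2's test and without any single DMSO library of 4 or 8 h. ADAMTS15 lost its call with DESeq2's test, without DMSO replicate 1 at 4 h and without DMSO replicate 2 at 8 h. ADAMTS18 had 4.41 and 4.74 CPM at 8 h, against 9.96 and 11.4 CPM at 4 h (-1.21 ± 0.31). Its call was lost in 5 of 19 settings, DESeq2's test and leaving out either DMSO library at 8 h among them. ADAM12, which sheds the growth factor HB-EGF, had 553 and 461 CPM at 8 h, against 1057 and 1057 CPM at 4 h (-1.06 ± 0.15). ADAMTS6, ADAMTS1, ADAMTS7, ADAM19 and ADAM9 fell too, by 0.54 to 0.80 on the log2 scale, and ADAMTS12 and ADAM22 rose by 0.41 ± 0.13 and 0.66 ± 0.18. The call of ADAMTS12 was lost in 10 of 19 settings, that of ADAMTS7 in 6 and that of ADAM22 in 5. ADAM9 kept its call in 13 of the 19. With library sizes from all reads the median of all genes was 0.59, and 15 members were higher and 0 lower, ADAM9 turning to 0.053. Without DMSO replicate 1 at 8 h 7 members passed, and without replicate 2 at 8 h 4 did.

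**Figure D2:**
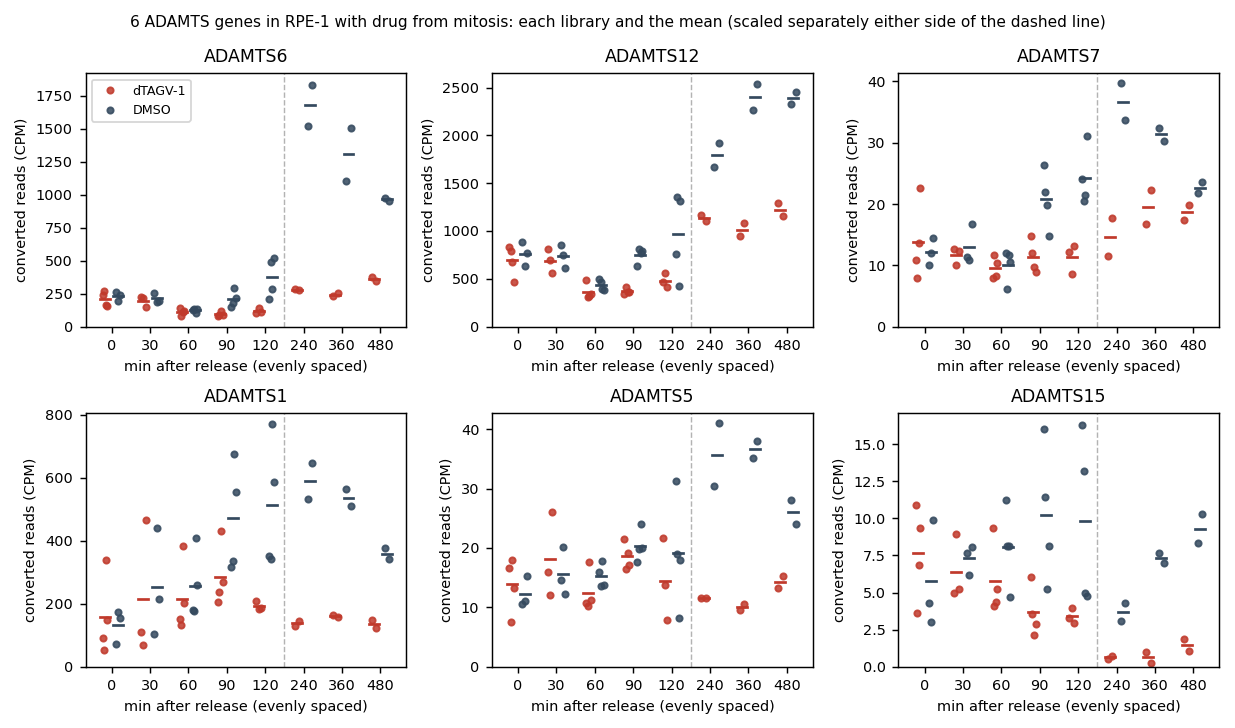
Converted reads in CPM (vertical axis) of 6 ADAMTS genes in RPE-1 with drug from mitosis, by time after release in min (horizontal axis, evenly spaced); points are libraries, short lines are group means, and the sets left and right of the dashed line were scaled separately. ADAMTS6 lies at 229 to 378 CPM with dTAGV-1 and at 951 to 1833 CPM with DMSO at 240 to 480 min, while its arms overlap at 0 min.

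The drug comparisons ask which members differ with dTAGV-1 as transcription restarts. No library came from cells without the tag, so loss of NIPBL and other effects of the drug cannot be told apart. With drug from mitosis, 4 ADAMTS genes were lower on average over 30 to 120 min and no member was higher. ADAMTS6 (ENSG00000049192.14, hg38 chr5:65148736-65481920), a secreted protease whose loss in mice disturbs heart formation, had 99.5, 141 and 112 CPM at 120 min with dTAGV-1, against 205, 493, 282 and 521 CPM with DMSO. At 90 min it had 80.2, 85.3, 119.9 and 89.1 CPM with dTAGV-1, against 147, 180.0, 295 and 216 CPM with DMSO. Its arms were apart at both times and overlapped at 0, 30 and 60 min. Its average log2 change was -0.78 ± 0.13 (adjusted p = 0.000236, edgeR), with -1.16 ± 0.24 at 90 min and -1.68 ± 0.27 at 120 min. ADAMTS12 (ENSG00000151388.10, chr5:33523535-33892192), which also cuts cartilage oligomeric matrix protein, had 471, 559.6 and 409 CPM at 120 min with dTAGV-1, against 758, 1355, 429 and 1316 CPM with DMSO (average -0.60 ± 0.12, adjusted p = 0.00469, edgeR). Its arms overlapped there through the DMSO library that stood apart, and were apart at 90 min. ADAMTS7 (ENSG00000136378.14, chr15:78759203-78811431) had 12.2, 8.64 and 13.2 CPM at 120 min with dTAGV-1, against 24.1, 20.5, 21.4 and 31.1 CPM with DMSO (average -0.56 ± 0.14, adjusted p = 0.031, edgeR). ADAMTS15 (ENSG00000166106.3, chr11:130448974-130476641) had 3.29, 3.93 and 2.93 CPM with dTAGV-1, against 16.3, 13.2, 4.95 and 4.78 CPM with DMSO (average -0.95 ± 0.23, adjusted p = 0.020, edgeR). Both genes had arms apart at 120 min, ADAMTS15 at low levels.

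These were 4 lower and 0 higher of 29 members, beside 0.753% and 0.521% of 14203 genes (1.27% in all), and the members' median was -0.01, against 0.02 over all genes. At 120 min alone ADAMTS6, ADAMTS7 and ADAMTS12 were lower, beside 0.62% of all genes (0.951% in either direction), and at 90 min ADAMTS6 and ADAMTS12, beside 0.268%. At 0, 30 and 60 min no member passed and no gene of the table did (edgeR, 0, 1 and 1 members at an unadjusted p under 0.05). Without replicate 1 of both arms 2 members passed, without replicate 2 or 4 only ADAMTS6 did, and 1 did when every read was counted. ADAMTS7 and ADAMTS15 were lost on leaving out any 1 replicate number. Without the DMSO library that stood apart 5 members passed.

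With drug only from release, ADAMTS6, ADAMTS7, ADAMTS12 and ADAM12 were lower over 30 to 120 min and TIMP3 was higher, which is 4 and 1 of 30 members, beside 1.62% and 0.481% of 13924 genes. ADAMTS6 had 428, 407 and 773 CPM at 120 min with dTAGV-1, against 1158, 1245 and 1591 CPM with DMSO. At 30 min it had 1692, 1649 and 1366 CPM with dTAGV-1, against 1838, 1490.2 and 1299.6 CPM with DMSO. Its arms overlapped at 30 min and were apart at 60, 90 and 120 min (average -0.55 ± 0.10, adjusted p = 0.00180, edgeR). ADAM12 (ENSG00000148848.14, chr10:126012381-126388455) had 749, 751 and 975 CPM at 120 min with dTAGV-1, against 1292, 1338 and 1344 CPM with DMSO (average -0.33 ± 0.07, adjusted p = 0.00476). ADAMTS12 had 1290.0, 1452 and 1395 CPM with dTAGV-1, against 1856, 2209 and 2043 CPM with DMSO (average -0.31 ± 0.08, adjusted p = 0.033). ADAMTS7 had 8.26, 10.8 and 16.7 CPM with dTAGV-1, against 30.9, 28.3 and 22.9 CPM with DMSO (average -0.56 ± 0.15, adjusted p = 0.048). In all 4 genes the arms were apart at 120 min. TIMP3 had 52.3, 59.2 and 68.3 CPM at 120 min with dTAGV-1, against 39.0, 37.8 and 34.0 CPM with DMSO, and its arms were apart too (average 0.49 ± 0.12, adjusted p = 0.034). SYN3, which covers TIMP3 on the opposite strand, had 1847 converted reads over all libraries, against 21444 for TIMP3, and did not pass here (-0.11 ± 0.32).

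At 120 min alone ADAMTS6, ADAM12 and ADAMTS5 were lower in the release series, beside 1.13% of all genes. ADAMTS5, an aggrecanase, had 19.3, 31.2 and 34.3 CPM with dTAGV-1, against 42.6, 58.5 and 57.9 CPM with DMSO (-0.86 ± 0.21, adjusted p = 0.036, edgeR). Without replicate 1 only TIMP3 passed over 30 to 120 min, without replicate 2 no member did, and without replicate 3 ADAM12, ADAMTS6 and ADAMTS7 did. With library sizes or counts from all reads no member passed. The drug effect from mitosis did not differ from that from release for any of 31 members (edgeR, 0 at an unadjusted p under 0.05, and 0 with DESeq2), where 0.0951% of all genes passed. For ADAMTS6 that difference was -0.24 ± 0.17 and for ADAMTS12 -0.29 ± 0.16 on the log2 scale.

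**Figure D3:**
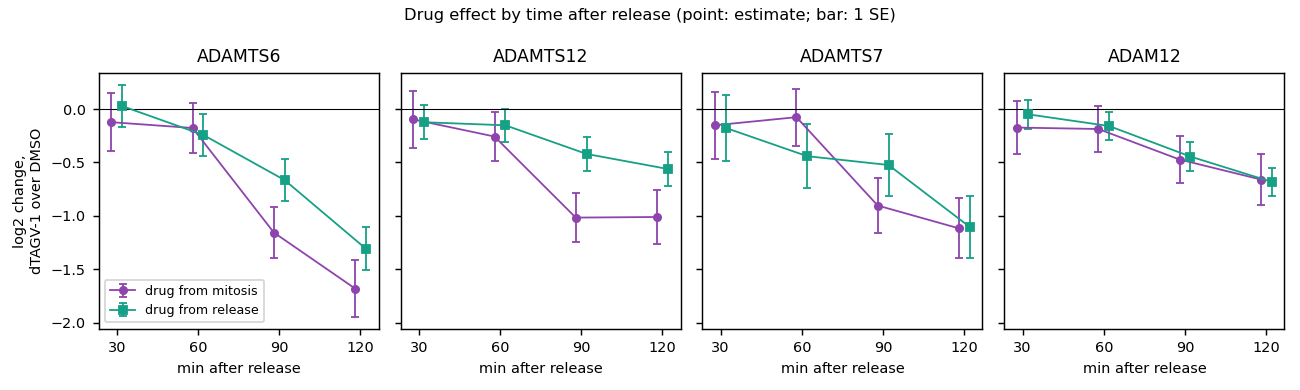
Log2 change of converted reads with dTAGV-1 over DMSO (vertical axis) by time after release in min (horizontal axis) for ADAMTS6, ADAMTS12, ADAMTS7 and ADAM12, with drug from mitosis or from release; points are estimates and bars 1 SE. ADAMTS6 reaches -1.68 with drug from mitosis and -1.31 with drug from release at 120 min.

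The 120 min pulse collects RNA made over the whole 2 h. With drug from mitosis ADAMTS6, ADAM12, ADAMTS12 and ADAMTS7 were lower, 4 of 36 members with 0 higher, beside 2.05% and 0.41% of 16569 genes (2.46% in all). ADAMTS6 had 129.6, 98.0 and 47.9 CPM with dTAGV-1, against 553, 523 and 303 CPM with DMSO (-2.32 ± 0.35, adjusted p = 0.00147, edgeR). ADAM12 had 192, 248.8 and 167 CPM with dTAGV-1, against 529, 625 and 525 CPM with DMSO (-1.46 ± 0.18, adjusted p = 0.000368). In both the libraries with dTAGV-1 lay below all with DMSO. ADAMTS12 had 468, 588 and 264 CPM with dTAGV-1, against 1132, 1456 and 935 CPM with DMSO (-1.42 ± 0.27, adjusted p = 0.00965). ADAMTS7 had 15.7, 13.2 and 13.8 CPM with dTAGV-1, against 34.5, 32.3 and 34.7 CPM with DMSO (-1.25 ± 0.18, adjusted p = 0.00141). These 2 genes had arms apart as well. With the replicate number as a block, which pairs these libraries, 6 members were lower and 1 higher. Without replicate 2 only ADAM12 passed, and with all reads 1 member did.

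With drug from release and the long pulse, ADAMTS7 alone passed, 1 of 36 members, beside 0.646% of all genes lower. It had 20.5, 24.7 and 30.5 CPM with dTAGV-1, against 50.2, 49.4 and 35.4 CPM with DMSO (-0.83 ± 0.18, adjusted p = 0.046, edgeR). That call was lost without replicate 1 or 2, with library sizes or counts from all reads and with the series fitted alone. In the series fitted alone 1 other member was lower. ADAMTS6 had 541, 622 and 799 CPM with dTAGV-1, against 1092, 1839.7 and 2103 CPM with DMSO, and did not pass (-1.36, adjusted p = 0.099, edgeR). Its arms were apart. Other members that did not pass had arms apart in both directions, ADAM12 lower and ADAM32 higher with dTAGV-1 among them. How many of all genes had arms apart was not counted, so arms apart do not stand in for the test.

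At 4 to 8 h with drug from mitosis all 3 tested proteoglycanases of the ADAMTS family fell. ADAMTS15 had, at 4, 6 and 8 h in turn, 0.535 and 0.721, 0.981 and 0.265, and 1.85 and 1.04 CPM with dTAGV-1, against 3.08 and 4.31, 7.65 and 6.99, and 8.34 and 10.3 CPM with DMSO (average -2.92 ± 0.29, adjusted p = 1.20e-06, edgeR). ADAMTS1 (ENSG00000154734.14, chr21:26835747-26845409) had 130.04 and 146, 164 and 156, and 146 and 121 CPM with dTAGV-1, against 531 and 648, 562 and 511, and 375 and 341 CPM with DMSO (-1.76 ± 0.08, adjusted p = 6.53e-11). ADAMTS5 (ENSG00000154736.5, chr21:26917912-26966513) had 11.5 and 11.5, 9.48 and 10.6, and 13.2 and 15.3 CPM with dTAGV-1, against 30.4 and 41.0, 35.2 and 38.1, and 28.0 and 24.02 CPM with DMSO (-1.45 ± 0.12, adjusted p = 9.37e-08). At every time both libraries with dTAGV-1 lay below both with DMSO in these genes, although the 6 values of ADAMTS15 with dTAGV-1 rest on 1 to 8 reads each.

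Among the other ADAMTS genes 4 of 8 fell and 1 rose. ADAMTS6 had 286 and 276, 229 and 256, and 378 and 342 CPM with dTAGV-1, against 1524 and 1833, 1107 and 1503, and 978 and 951 CPM with DMSO (-2.14 ± 0.09, adjusted p = 1.84e-11, edgeR). ADAMTS12 had 1170.1 and 1100.0, 947 and 1079.5, and 1288 and 1157 CPM with dTAGV-1, against 1666 and 1919.7, 2261 and 2538, and 2324 and 2449.8 CPM with DMSO (-0.96 ± 0.07, adjusted p = 5.08e-08). Arms were apart at each time in both genes. ADAMTS7 fell by 0.77 ± 0.12 (adjusted p = 0.000155) and ADAMTS18 by 0.63 ± 0.20 (adjusted p = 0.034), and ADAMTS16, which cuts fibronectin, rose by 0.62 ± 0.11 (adjusted p = 0.000452). Of 2 procollagen proteinases ADAMTS14 rose on average (0.52 ± 0.12, adjusted p = 0.00614). It had, at 4, 6 and 8 h in turn, 8.56 and 11.2, 21.9 and 19.9, and 24.5 and 29.5 CPM with dTAGV-1, against 12.3 and 12.7, 12.7 and 14.0, and 10.5 and 11.8 CPM with DMSO. Its libraries with dTAGV-1 thus lay below those with DMSO at 4 h and above them at 6 and 8 h, and it passed singly at 8 h alone.

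Of 7 active ADAMs ADAM12 fell by 0.48 ± 0.08 and ADAM19 by 0.44 ± 0.07 (adjusted p = 0.000438 and 0.000106, edgeR), while ADAM17 rose by 0.37 ± 0.08 and ADAM9 by 0.27 ± 0.07 (adjusted p = 0.00179 and 0.016). ADAM12 was at 564 and 477 CPM at 8 h with dTAGV-1, against 553 and 461 CPM with DMSO, so that its difference lay at 4 and 6 h (-0.77 ± 0.15 and -0.72 ± 0.15). ADAM32, without a complete zinc site, rose by 0.69 ± 0.09 (adjusted p = 3.99e-05). The MMPs and TIMPs gave no call among 6 and 3 tested. MMP14, which activates MMP2, was at -0.08 ± 0.12 and MMP2 itself at 0.16 ± 0.08, TIMP1 at 0.33 ± 0.15 and TIMP2 at -0.01 ± 0.07 on the log2 scale.

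In all 9 members fell and 5 rose of 32, beside 10.7% and 9.07% of 14568 genes, and the members' median was -0.05, against 0.01 over all genes. Taken singly, the 4 h time had 8 lower and 2 higher members, the 6 h time 7 and 0, and the 8 h time 5 and 2, beside 3.51% and 1.89%, 4.72% and 2.38%, and 4.62% and 3.51% of all genes (5.4%, 7.09% and 8.13% in either direction). ADAMTS6 changed by -2.58, -2.43 and -1.42 at 4, 6 and 8 h. With library sizes from all reads 9 members were lower and 3 higher. The fibroblast marker list summed to 206 to 223 CPM at 4 h with dTAGV-1 and 156 to 161 CPM with DMSO, and to 119 to 152 and 117 to 154 CPM at 8 h, with 2 of 9 markers lower at 4 h and 3 at 8 h. The neural progenitor and glia list summed to 859 to 911 CPM at 4 h with dTAGV-1 and 1208 to 1217 CPM with DMSO (2 of 7 markers lower), and to 729 to 935 and 667 to 733 CPM at 8 h. The neuron list summed to 89.4 to 114 CPM at 4 h with dTAGV-1 and 148 to 159 CPM with DMSO, and to 91.5 to 99.6 and 51.5 to 53.5 CPM at 8 h, with 4 of 8 markers lower at both times. The retinal pigment epithelium list was higher with dTAGV-1 at each time, with 386 to 396 CPM at 4 h against 259 to 310.1 CPM with DMSO. MITF made up most of that sum, since the other 7 markers stayed under 5 CPM each in every RPE-1 group mean. The part of these lists in the members' changes was not tested.

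In neurons ADAMTS15, ADAM12 and ADAMTS9 were lower with dTAGV-1, 3 of 43 members with 0 higher, beside 1.66% and 0.574% of 18642 genes. ADAMTS15 had 6.34 and 5.81 CPM with dTAGV-1, against 20.8 and 22.2 CPM with DMSO (-1.83 ± 0.17, adjusted p = 0.000159, edgeR). ADAM12 had 46.3 and 37.8 CPM with dTAGV-1, against 135 and 126 CPM with DMSO (-1.64 ± 0.13, adjusted p = 5.65e-05). ADAMTS9, a proteoglycanase, had 81.5 and 80.3 CPM with dTAGV-1, against 158 and 157 CPM with DMSO (-0.96 ± 0.16, adjusted p = 0.00778). All 3 had arms apart, and ADAMTS15 and ADAM12 passed under all 17 settings tried, whereas ADAMTS9 lost its call without any 1 of the 4 neuron libraries (adjusted p up to 0.136, edgeR). The members' median was -0.17, against 0.00 over all genes. Without either cardiomyocyte library with dTAGV-1, which share the fit, 7 members passed. The endothelial list summed to 7.57 to 8.64 CPM with dTAGV-1 and 7.13 to 9.11 CPM with DMSO, and the fibroblast list to 256 to 291 and 291 to 300.2 CPM. The cardiomyocyte list summed to 27.2 to 35.6 CPM with dTAGV-1 and 61.7 to 64.8 CPM with DMSO, with 5 of 8 markers lower, and its part in the lower members was not tested.

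In cardiomyocytes 6 of 43 members were lower and 3 higher, beside 3.65% and 1.18% of all genes (4.83% in all). ADAMTS5 had 1.80 and 2.68 CPM with dTAGV-1, against 11.5 and 6.24 CPM with DMSO (-1.99 ± 0.37, adjusted p = 0.00976, edgeR). ADAMTS15 had 12.8 and 11.0 CPM with dTAGV-1, against 29.6 and 28.1 CPM with DMSO (-1.28 ± 0.14, adjusted p = 0.000412). TIMP3 had 67.0 and 41.8 CPM with dTAGV-1, against 107 and 118 CPM with DMSO (-1.05 ± 0.17, adjusted p = 0.00401). Arms were apart in these 3 genes. ADAMTS8, a proteoglycanase, was higher, with 3.05 and 3.21 CPM with dTAGV-1, against 1.05 and 1.20 CPM with DMSO (1.47 ± 0.34, adjusted p = 0.031), although its call was lost in 9 of 17 settings. ADAMTS9 had 114 and 71.9 CPM with dTAGV-1, against 172 and 168 CPM with DMSO, and fell by 0.87 ± 0.16, ADAM19 by 0.80 ± 0.17 and ADAMTS18 by 0.58 ± 0.11 (adjusted p = 0.00776, 0.021 and 0.010). ADAMTS19, which is linked to human heart valve disease, had 299.8 and 362 CPM with dTAGV-1, against 212 and 183 CPM with DMSO (0.75 ± 0.12, adjusted p = 0.00348). MMP15, a membrane-type MMP, rose by 0.85 ± 0.17 (adjusted p = 0.014). Of 17 settings, ADAM19 lost its call in 6, MMP15 in 5, ADAMTS18 in 4, ADAMTS5 in 3 and ADAMTS9 in 2. TIMP3 and ADAMTS19 lost theirs in 1 each and ADAMTS15 in 0.

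Markers of other cells moved in the cardiomyocyte cultures. The endothelial list summed to 81.0 to 105 CPM with dTAGV-1 and 169 to 169.5 CPM with DMSO, with all 6 markers lower. The fibroblast and smooth muscle list summed to 310.3 to 398 CPM with dTAGV-1 and 548 to 611 CPM with DMSO, with 8 of 9 markers lower, and the neural progenitor and glia list to 191 to 224 and 320.3 to 359 CPM, with 4 of 7 lower. The neuron list summed to 49.7 to 50.3 CPM with dTAGV-1 and 87.8 to 111 CPM with DMSO, with 6 of 8 markers lower. Their part in the lower members was not tested. ADAMTS9-AS2, antisense to ADAMTS9, fell as well (-1.06 ± 0.16), and with strand handling not given in the sources used here their reads cannot be told apart where they overlap. Fitted without the neurons, the cardiomyocytes gave 2 calls (1 lower and 1 higher), ADAMTS15 and ADAMTS19. Without DMSO replicate 1 5 members passed.

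**Figure D4:**
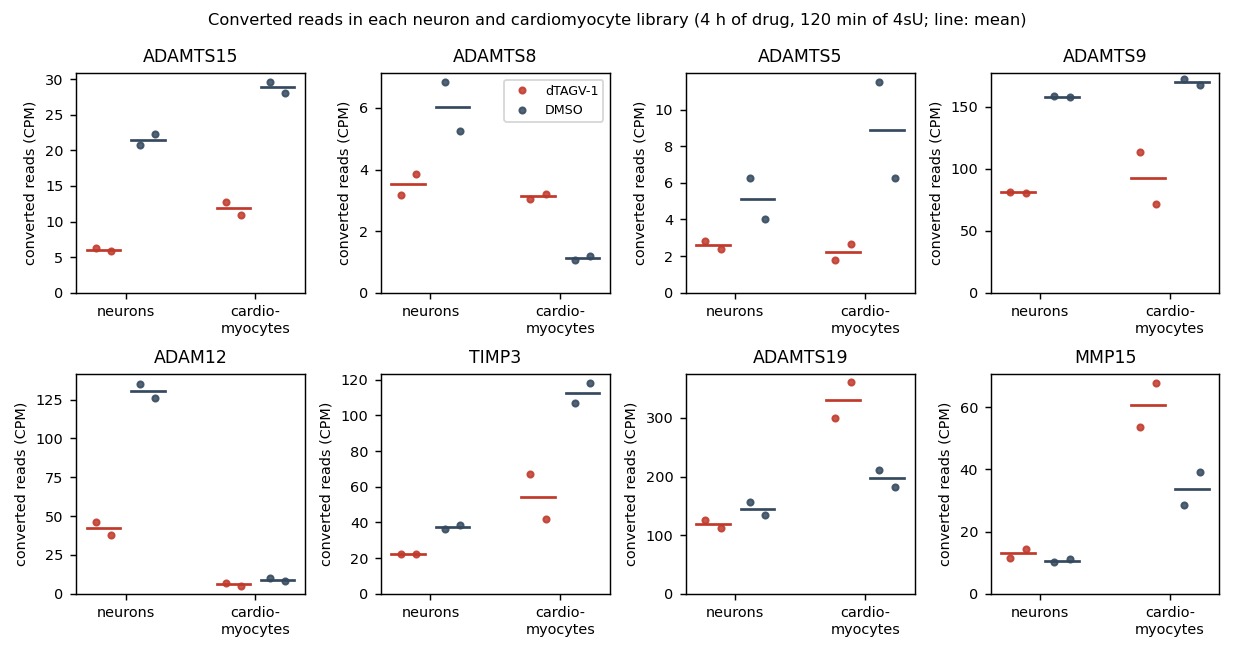
Converted reads in CPM (vertical axis, from 0) of 8 genes in each neuron and cardiomyocyte library (horizontal axis) with dTAGV-1 or DMSO; points are libraries and lines are means. ADAMTS8 lies at 3.05 and 3.21 CPM with dTAGV-1 and at 1.05 and 1.20 CPM with DMSO in cardiomyocytes, and at 3.17 and 3.87 CPM with dTAGV-1 and 6.84 and 5.25 CPM with DMSO in neurons.

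The drug effect in neurons minus that in cardiomyocytes passed for 2 of 43 members, both more negative in neurons, beside 0.252% of all genes. ADAMTS8 differed by -2.23 ± 0.43 (adjusted p = 0.049, edgeR), with 3.17 and 3.87 CPM with dTAGV-1 in neurons, against 6.84 and 5.25 CPM with DMSO. ADAMTS19 differed by -1.04 ± 0.17 (adjusted p = 0.024), with 126 and 112 CPM with dTAGV-1 in neurons, against 156 and 135 CPM with DMSO. Both calls depended on single libraries. No member passed without any 1 of the 4 neuron libraries or without DMSO replicate 2 of the cardiomyocytes, 1 passed without DMSO replicate 1 or dTAGV-1 replicate 2 of the cardiomyocytes, and 5 without their dTAGV-1 replicate 1 (11 at an unadjusted p under 0.05 with all libraries, edgeR).

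Across both arms neurons and cardiomyocytes differed in 32 of 43 members, 18 lower and 14 higher in neurons, beside 32.7% and 32.4% of all genes. MMP1, the interstitial collagenase, had 0 reads in 4 neuron libraries, against 51 in 4 cardiomyocyte libraries at 1.58 ± 0.71 CPM (SD, n = 4), which is at least 3.46-fold lower for a floor of 3 counts per library. ADAM28 had 0.704 and 0.447 CPM with dTAGV-1 and 1.46 and 0.414 CPM with DMSO in neurons, against 69.0 and 82.5, and 58.4 and 62.1 CPM in cardiomyocytes (-6.51 ± 0.20). MMP17, a GPI-anchored MMP, had 7.57, 7.15, 8.00 and 7.46 CPM in neurons, against 0.554, 0.536, 0.316 and 0.120 CPM in cardiomyocytes (4.36 ± 0.26). Each of these 3 genes passed the read filter only through the cell type where it was high. Their lack of overlap between the cell types therefore adds no support. WTAPP1 covers all 8241 bases of MMP1 on the opposite strand, with 565 converted reads over all libraries against 90 for MMP1, and was at -0.21 ± 0.17. RP11-624C23.1 covers 63205 bases of ADAM28 on the opposite strand, with 1417 reads against 2315, and was higher in neurons (2.74 ± 0.17). ADAM18 was at -3.35 ± 0.29, with 0.352 and 0.298 CPM with dTAGV-1 and 1.31 and 0.8285 CPM with DMSO in neurons, against 6.10 and 6.56, and 7.07 and 4.92 CPM in cardiomyocytes. ADAM12 was at 3.31 ± 0.11, with 46.3 and 37.8 CPM with dTAGV-1 and 135 and 126 CPM with DMSO in neurons, against 6.93 and 5.22, and 9.92 and 8.28 CPM in cardiomyocytes.

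By role, the 3 procollagen proteinases were all higher in neurons, ADAMTS3, which also activates VEGFC, by 1.85 ± 0.14, ADAMTS14 by 1.17 ± 0.23 and ADAMTS2 by 0.97 ± 0.17. Of the 6 ADAMs without a complete zinc site, ADAM11, ADAM22, ADAM23 and ADAM29 were higher and ADAM18 and ADAM32 lower. ADAM22 and ADAM23 are receptors of the secreted synaptic protein LGI1 and were higher by 0.62 ± 0.09 and 0.69 ± 0.12. Of 3 TIMPs, TIMP3 and TIMP1 were lower, at -1.44 ± 0.13 and -1.22 ± 0.21. ADAMTS20 (3.13 ± 0.13), ADAM15 (1.86 ± 0.26), ADAMTS8 (1.29 ± 0.22), MMP16 (1.12 ± 0.12) and ADAMTS7 (0.94 ± 0.09) were the other higher members. The other lower ones were ADAMTS12 (-2.81 ± 0.12), ADAMTS18 (-2.45 ± 0.09), ADAMTS1 (-2.37 ± 0.09), MMP15 (-1.94 ± 0.14), ADAM9 (-1.73 ± 0.07), ADAM19 (-1.49 ± 0.13), ADAMTS16 (-1.44 ± 0.34), MMP14 (-1.42 ± 0.12), ADAMTS19 (-0.96 ± 0.08), MMP11 (-0.95 ± 0.25), ADAMTS6 (-0.83 ± 0.08) and ADAMTS15 (-0.70 ± 0.11). With library sizes from all reads the median of all genes was -0.33, and 24 members were lower and 12 higher.

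Levels between genes were compared as CPM per kb of gene span in DMSO libraries with the 120 min pulse. Whether intron reads were counted is not given in the sources used here, and if they were not, division by the span favours short genes. ADAMTS1, a short gene, led in neurons (2.33 ± 0.08, SD, n = 2), in cardiomyocytes (13.8 ± 2.1, SD, n = 2) and in released RPE-1 (99.4 ± 16.7, SD, n = 3), where the RPE-1 libraries were scaled separately. In neurons ADAM17 (1.80), ADAM10, the alpha-secretase (1.52), and ADAMTS3 (1.497) followed, the last 2 within their spread. In cardiomyocytes ADAM9 (2.73) came next, and ADAM17 (1.84), TIMP3 (1.84), MMP14 (1.82), MMP15 (1.58), ADAM10 (1.57) and TIMP1 (1.54) each lay within the spread of their neighbours. In RPE-1 MMP14 (13.2) came next, and ADAMTS6 (5.04), ADAMTS12 (5.02), ADAM9 (4.56) and ADAM19 (4.45) could not be ordered beyond their spread.

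**Figure D5:**
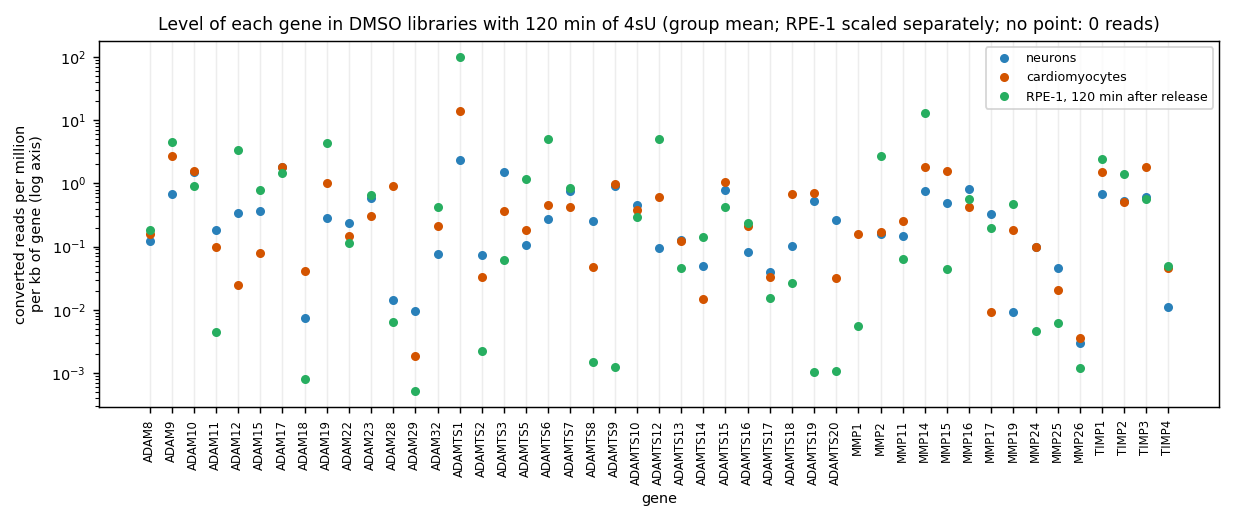
Mean converted reads in CPM per kb of gene (vertical log axis) of each tested gene (horizontal axis) in DMSO libraries with 120 min of 4sU, for neurons, cardiomyocytes and RPE-1 at 120 min after release; a missing point means 0 reads. ADAMTS1 is the highest gene in all 3, at 2.33, 13.8 and 99.4.

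Of 31 listed regulators and relatives of these enzymes, PLAT, the tissue plasminogen activator, and SERPINE2, which inhibits it, had the largest changes at 4 to 8 h, where 6 of 24 tested fell and 4 rose, beside 10.7% and 9.07% of all genes. The list was chosen with earlier results of these data known, so its counts are no independent result beside the shares of all genes. PLAT changed by -2.37 ± 0.11 and SERPINE2 by -2.02 ± 0.10, and PCSK5, a proprotein convertase, and ADAMTSL1 rose by 1.02 ± 0.20 and 0.76 ± 0.08. Over 30 to 120 min PLAT was at -0.33 ± 0.09 from mitosis, as the 1 call of 23 (0.753% of all genes lower), and at -0.79 ± 0.10 from release, where SERPINE2 was at -0.81 ± 0.10, as the calls of 22 (1.62% lower). With the long pulse PLAT alone of 26 passed, at -1.44 ± 0.18 from mitosis and -1.21 ± 0.18 from release (2.05% and 0.646% of all genes lower). In neurons TFPI2 was the 1 call of 30 (-2.34 ± 0.23, beside 1.66% of all genes lower), and in cardiomyocytes 6 of 30 fell, beside 3.65%, among them PLAT at -1.31 ± 0.24, TFPI2 at -1.19 ± 0.27 and PCSK6 at -0.89 ± 0.22.

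Some members lie side by side. ADAMTS1 and ADAMTS5 are 72.503 kb apart on chromosome 21 and both fell at 4 to 8 h, and ADAM9 and ADAM32 are 1.846 kb apart on chromosome 8 and both rose. ADAMTS8 (ENSG00000134917.9, chr11:130404925-130428993) and ADAMTS15 point away from each other 19.981 kb apart, and in cardiomyocytes the first rose and the second fell. Of the 66 genes 41 overlap another gene, 40 of them on the opposite strand. ADAMTS7 overlaps MORF4L1 over 945 bases on the opposite strand. MORF4L1 had 71072 converted reads over all libraries, against 11338 for ADAMTS7, and passed in none of the 7 drug comparisons. With strand handling not given, reads of these 2 genes cannot be told apart where they overlap. The copies ADAMTS7P1, ADAMTS7P3 and ADAMTS7P4 had 440, 137 and 236 converted reads, against 11338 for ADAMTS7. How many of their reads were counted to ADAMTS7 was not tested, so its values are uncertain.

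ADAMTS7 was called in 8 of the 12 main comparisons and was lower in 5 of the 7 drug comparisons. ADAMTS6, ADAMTS12, ADAMTS15 and ADAM12 were lower in 4 each. The drug calls of ADAMTS7 were not equally stable. Its call for the average before 4 h was lost in 7 of 12 settings in the mitosis series and in 5 of 10 in the release series. Its long pulse call was lost in 6 of 11 settings from release and in 2 of 11 from mitosis. At 4 to 8 h it was lost in 1 of 19. Some comparisons share libraries or a fit, and how many of all genes were called this often was not counted. These counts are therefore a description. Over the 14 DMSO groups of RPE-1 the genes with the most similar group means to ADAMTS7, among 15503 genes, were SNX19 (Pearson's r 0.978), CHST11 (0.975), EPHB2 (0.973), TSPAN5 (0.968) and KCTD16 (0.966). These correlations are a description over groups that share libraries' scaling and depth.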

How the data were processed

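Per the labels' protocols, total RNA depleted of ribosomal RNA was sequenced after 4sU labelling (100 µM in RPE-1) and iodoacetamide treatment. Per the submitters' processing notes, HISAT, Picard and HTSeq were used on hg38. Strand and intron handling are not given in the sources used here. The deposited files hold, per gene and library, counts of converted reads and of all reads, and per the file headers a conversion rate given as a fraction, which was not used in any test. Of 49186 genes, 285 on the Y chromosome or tied to X inactivation were left out. Starts in the files were 1 base below RefSeq's for 9212 of 28643 matched genes, so 1 was added.

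Converted counts were tested with edgeR's quasi-likelihood test (two-sided, TMM scaling, Benjamini-Hochberg adjustment over all tested genes, threshold 0.05) after edgeR's filter (minimum count 10, total 15), in 1 fit per set: the mitosis series to 120 min, the release series, the 120 min pulses, 4 to 8 h, and neurons with cardiomyocytes. CPM were scaled within each fit, so levels are not compared across fits. The tests were run on simulated counts first. Tests ran in edgeR 4.0.16 with limma 3.58.1 under R 4.3.3, and in DESeq2 1.42.0, and tables and figures in Python 3.11.15 with pandas 2.3.3 and matplotlib 3.10.9.

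The members and gene lists were chosen with earlier results of these data known. In each main comparison up to 5 called members with the largest change were to be given in every library, other called members by their change, the rest by counts, and up to 4 called regulators, of which 1 is not reported here. ADAMTS14 at 4 to 8 h, and ADAM17 at 60 min, were chosen for values after they were seen. Replicate numbers paired libraries, from the data, at 0 min of the mitosis series (correlations of deviations 0.194 to 0.564) and for its 120 min pulse (0.152 to 0.581). In the release series they did so for the 15 min pulse ending at 120 min (0.239 to 0.423). Alternatives were DESeq2, its size factors, no filter, all reads, library sizes from all reads, the replicate number as a block, single fits, a minimum log2 change of 1, and fits without single replicates.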

Additional observations from a re-analysis of the deposited data

Results flagged for a closer look

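In groups of 4 libraries, 1 library lay far from the other 3 in 4 of the 90 sets examined (15 genes), where chance gives about 1 in 20. ADAM22 had 29.7 CPM in DMSO replicate 1 at 90 min of the mitosis series, against 18.5 to 19.9 CPM in the others. ADAM23 had 75.2 CPM in dTAGV-1 replicate 2 at 0 min, and ADAMTS12 had 492 CPM in dTAGV-1 replicate 1 at 60 min, both above the rest of their groups. TIMP3 had 20.0 CPM in DMSO replicate 1 at 60 min, below the others.

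The drug effect differed between neurons and cardiomyocytes for ADAMTS8 (-2.23 on the log2 scale) and ADAMTS19 (-1.04), by edgeR's test of the difference, as described above.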

How the results depend on the processing

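The 155 results compared here are single gene results and the counts of called members in comparisons other than the main ones. Of their 2395 alternative values 1995 stayed the same. For a gene that means the same direction and side of the threshold, and for a count a value within 1.5 times. In gene results 354 values lost the call and 6 turned direction, and 40 counts moved further. With library sizes from all reads ADAM23 and ADAM9 at 60 min turned to 0.031 and 0.16 and ADAM9 at 8 h to 0.053, and with all reads ADAMTS6 and MMP16 at 120 min turned to -0.73 and -0.023 and MMP16 at 90 min to -0.038. The scaling itself sets the first 3, and the cause of the others was not tested.

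Counts of called members moved as follows. With a log2 change of at least 1, 4 members were left for DMSO 120 against 0 min, 5 for 8 against 4 h, 0 over 30 to 120 min in each series, 0 for the release series' 120 min pulse, and 4 each at 4 to 8 h and in cardiomyocytes. With all reads the mitosis mean and long pulse each gave 1, and the release mean, its long pulse and the neuron minus cardiomyocyte difference 0. With library sizes from all reads neurons gave 7 and the release mean and long pulse 0; the median of all genes then moved to -0.12 in neurons and 0.12 in the release mean. Without a filter cardiomyocytes gave 16, neurons 8, the long pulses 8 from mitosis and 3 from release, and the difference 5. DESeq2's test gave 5 in neurons and 3 for the release long pulse. Fitted alone, cardiomyocytes gave 2 and neurons 10.

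With the replicate number as a block, the count was 7 for the mitosis long pulse, where numbers pair, and 3 for the release long pulse, 5 in cardiomyocytes and 0 for the difference, where they share only a number; it moved no other count by over 1.5 times. The crossed pairing of cardiomyocyte libraries, added after seeing the data, gave 17 in cardiomyocytes, 11 in neurons and 7 for the difference.

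Leaving out single replicates gave 2 to 8 calls for DMSO 120 against 0 min, 4 to 13 for 8 against 4 h, 1 to 5 for the mitosis mean, 0 to 3 for the release mean, 1 to 5 and 0 to 2 for the long pulses, 12 to 15 at 4 to 8 h, 2 to 7 in neurons, 5 to 12 in cardiomyocytes, 0 to 5 for their difference and 32 to 34 between the cell types. Low counts limit MMP1, ADAM29, ADAMTS8 and ADAM11, which were called on 90, 135, 223 and 292 converted reads over all libraries.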
